A study of Mus musculus with 3 samples.

Results

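The S100 genes encode small proteins that bind calcium through paired EF-hand motifs, and 10 of them are described here across tumours of liver, stomach and lung: S100a1, S100a4, S100a6, S100a8, S100a9, S100a10, S100a11, S100a14, S100b and S100g. They were taken by gene name from the array, which carries 27677 gene names in all, and they were chosen with their ratios in these tissues known, so the values below describe them and test nothing. All 10 names matched the RefSeq accession printed beside them, and each gene had 1 probe at 1 spot.

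Most S100 proteins act as dimers that change shape when calcium binds and then attach to target proteins inside the cell. Some are also secreted and act outside it on receptors such as RAGE (the product of Ager) and Tlr4. S100a8 and S100a9 pair to form calprotectin, an abundant protein of neutrophils that stressed squamous epithelium also makes. S100a10 forms a complex with annexin A2, S100a11 binds annexin A1, S100a6 binds the calcyclin-binding protein Cacybp, and S100a4 binds non-muscle myosin. S100b is best known from glial cells, and S100g, also called calbindin-D9k, carries calcium through absorptive cells.

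The tumours came from mice transgenic for AID (activation-induced cytidine deaminase), an enzyme that deaminates cytosine in DNA. RNA of a liver tumour was set against nontumour liver of the transgenic mouse that bore it, and RNA of a stomach tumour against nontumour stomach in the same way. RNA of a lung tumour of a transgenic mouse was set against normal lung of a wild-type mouse, so in that pair the transgene and the tumour cannot be told apart. Each of these 3 pairs was hybridised once to a 2-colour Agilent mouse array, with the tissues labelled Cy3 and Cy5. Strain, age, the promoter of the transgene and the pooling of animals are not given in the sources used here. With 1 array per organ, without replicates or exchanged dyes, no p-value is given, and precision is limited by how few arrays there are.

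Values are ratios of Cy5 over Cy3 on the log2 scale, because the sources conflict on which dye was the tumour. By the dye labels the tumour RNA was the Cy3 one. The authors' deposited table heads its lists up and down in the tumour, and its up lists hold only spots brighter in Cy5: 518 of 518 in liver, 1660 of 1660 in stomach and 2288 of 2288 in lung. By those headings Cy5 was the likely tumour channel, and by the labels every direction would turn. Liver and stomach ratios were computed from the scanner files, with a background correction that adds 50 to every signal and so pulls ratios of dim genes towards 0. The scanner software's own ratio is given beside them where it differs, and the errors printed are that software's error for 1 spot. For lung, only the authors' deposited table was used, whose lung lists start at 2-fold.

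Raw signals of gene spots had medians of 180 in Cy3 and 152 in Cy5 on the liver array, and of 171 and 163 on the stomach array. Negative control spots had medians of 127 and 67.7, and of 119 and 68.4. The scanner software flagged all 10 S100 spots as well above background in both channels of both arrays, although S100a14, S100b and S100g in liver were close to the negative controls, with errors above their ratios. In the labelled tissues, 9 measured markers of hepatocytes had a summed signal of 177500 in Cy3 and 138400 in Cy5 on the liver array. On the stomach array 10 had 3442 and 2086. Alb was in the stomach sum but not in the liver sum. Gastric gland markers had 512900 and 146200 on the stomach array (12 genes), against 8523 and 10310 on the liver array (11 genes).

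On mouse chromosome 3 lie 8 of the 10 genes, in an order that the RefSeq table gives as S100a1, S100a14, S100a4, S100a6, S100a8 and S100a9, with other S100 genes between some of them, and then, after 56 further protein-coding genes, S100a11 and S100a10. S100b is on chromosome 10 and S100g on chromosome X. The array's own coordinates, for which the sources used here name no build, put the probe of S100a8 at 90800058 to 90800117 on chromosome 3 and that of S100a9 at 90822865 to 90822924. S100a8 and S100a9 are neighbours, and their ratios went the same way as each other on both arrays. Their promoters are shown with those of S100a4 and S100g, the members with opposite directions in different organs, as the 150 bases before the RefSeq start in build GRCm38.p6, at chr3:90668921-90669070 (plus strand), chr3:90695722-90695871 (minus strand), chr3:90603620-90603769 (plus strand) and chrX:162964600-162964749 (minus strand). Capitals mark matches to the TATA box TATAAA or to the C/EBP-type pattern TTNNGNAA, on either strand.
S100a8: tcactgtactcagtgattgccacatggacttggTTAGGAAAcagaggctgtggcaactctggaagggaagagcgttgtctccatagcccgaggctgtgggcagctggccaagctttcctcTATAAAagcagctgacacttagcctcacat
S100a9: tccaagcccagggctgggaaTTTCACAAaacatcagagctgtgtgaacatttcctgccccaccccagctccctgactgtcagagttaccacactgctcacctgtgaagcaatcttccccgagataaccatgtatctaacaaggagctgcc
S100a4: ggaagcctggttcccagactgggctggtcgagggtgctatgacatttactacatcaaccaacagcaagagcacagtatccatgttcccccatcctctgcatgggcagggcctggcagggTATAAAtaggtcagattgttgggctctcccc
S100g: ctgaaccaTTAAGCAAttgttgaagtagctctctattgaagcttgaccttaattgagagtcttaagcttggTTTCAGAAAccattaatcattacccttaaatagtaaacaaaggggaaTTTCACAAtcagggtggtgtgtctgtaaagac
S100a8 has a TATA box 30 to 25 bases before its start and S100a4 has one at 31 to 26, while the windows of S100a9 and S100g have none. Over the 250 bases before the start, 2 of the 8 members with a window held TATAAA, against 12.4% of 32851 mouse promoter windows of that length. The C/EBP-type pattern was in 3 of the 8 windows, those of S100a8, S100a9 and S100g, against 36.8% of all windows. In S100g some of its matches overlap each other. The AP-1 site TGANTCA was in 1 of the 8, that of S100a11, which held it at 136 to 130 and at 38 to 32 bases before the start, against 6.75% of all windows. These matches describe letters only.

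Across the organs the members lay on the Cy5 side or near 0 in liver, mostly on the Cy5 side in stomach and on both sides in lung. In liver S100a1, S100a6, S100a14, S100b and S100g had ratios smaller than their scanner errors, which give no direction. The same held for S100a4 and S100a14 in stomach. On the liver array all 10 ratios were above 0, as were 52.85% of all 25606 genes measured. They lay between 0.005 for S100a1 and 0.87 for S100a9, with a median of 0.26 against 0.01 over all genes. None reached 2-fold, which 0.152% of genes did on the Cy5 side and 0.0703% on the Cy3 side. The lowest of the 10 rested on small values: S100a1 had -0.01 by the scanner software's ratio, and centring on the median without a loess curve gave S100a14 -0.07, S100b -0.03 and S100g -0.08. On the stomach array 8 ratios were above 0 and 2 below, where 50.2% of 25322 genes were above 0. The median was 0.61 against 0.001 over all genes. S100a10, S100g and S100b reached 2-fold on the Cy5 side, where 0.873% of all genes were, and S100a9 did so on the Cy3 side, where 1.41% were. Those shares depended on the processing. On the liver array the scanner software's ratios put 541 genes past 2-fold on the Cy5 side and 420 on the Cy3 side, where 39 and 18 were counted here, and on the stomach array 1093 and 1049. Centring on the median alone gave 110 and 7 in liver, and 1017 and 235 in stomach, where 221 and 358 were counted here.

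The authors' deposited table held 4 of the 10 genes in its liver up list, S100a8, S100a9, S100a10 and S100a11, where 1.25% of gene spots were listed, and none in its down list, where 1.04% were. It held 5 in the stomach up list (4.0% of gene spots), S100a1, S100a10, S100a11, S100b and S100g, and S100a9 in the stomach down list (3.33%). In lung, S100a10, S100a14 and S100b were in the up list (5.51%), and S100a4 and S100g in the down list (9.78%). The other 5, S100a1, S100a6, S100a8, S100a9 and S100a11, were in neither lung list, and no lung value was used for them. Since the members were chosen on these ratios, nothing is read from the comparison with the background shares. S100a10 was the member listed up in all 3 organs. The lists differ in threshold, since those of liver and stomach reach down to 1.35-fold and those of lung start at 2-fold. S100a11, listed up at 1.85-fold in liver and 1.63-fold in stomach, would not enter the lung list at such a ratio.

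**Figure D1:**
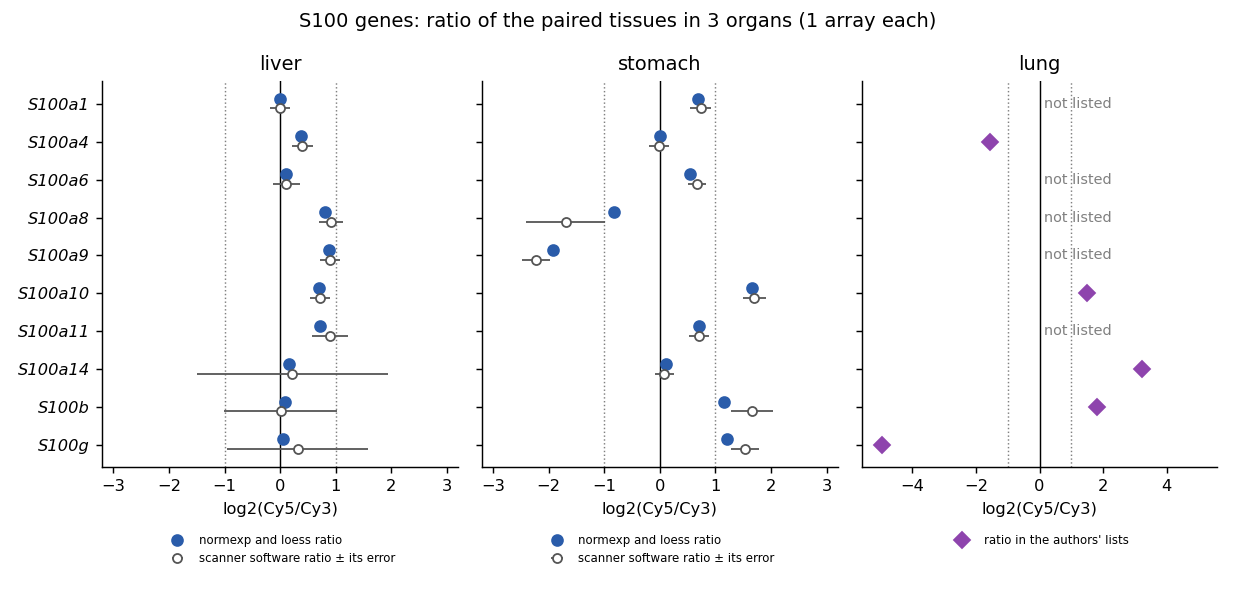
Log2(Cy5/Cy3) of the 10 S100 genes in liver, stomach and lung, 1 array per organ. Filled circles are ratios after normexp and loess, open circles the scanner software's ratios with its error for 1 spot, and diamonds the ratios in the authors' deposited lung lists; dotted lines mark 2-fold, and S100a6 was saturated in Cy5 of stomach. S100a8 and S100a9 lie right of 0 in liver and left of 0 in stomach, and S100g lies at 1.21 in stomach and -4.95 in lung.

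**Figure D2:**
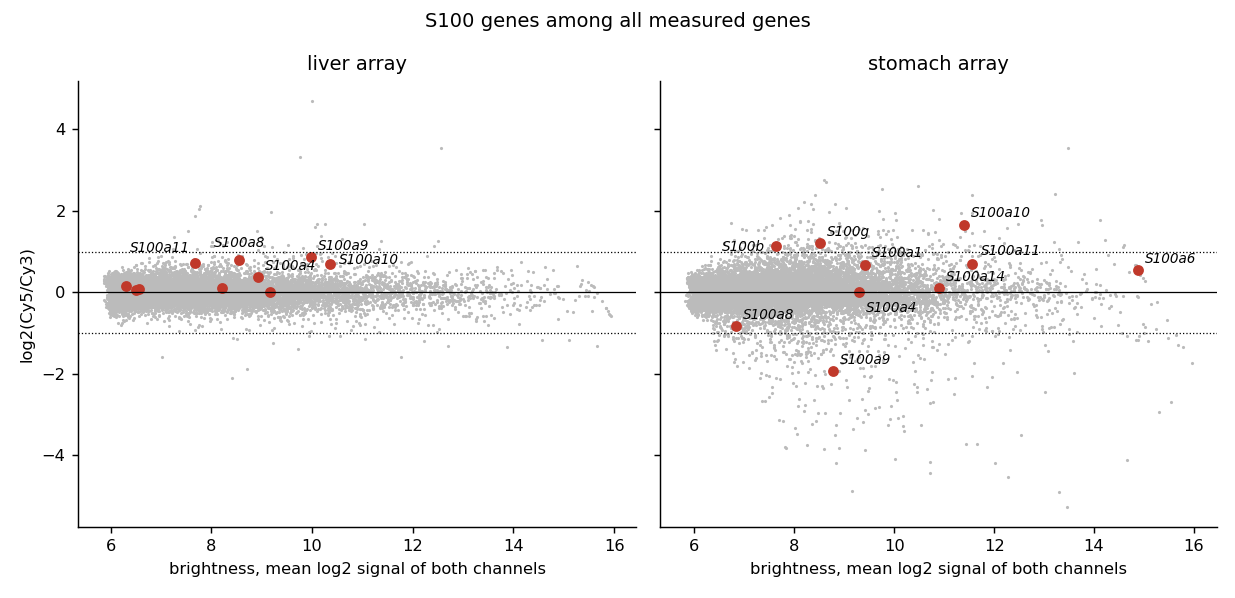
Log2(Cy5/Cy3) against brightness (mean log2 signal of both channels) for all measured genes (grey) and the 10 S100 genes (red) on the liver and stomach arrays; dotted lines mark 2-fold. In liver the S100 genes lie inside the 2-fold lines, and in stomach S100a10 (1.66) and S100a9 (-1.93) lie outside them on opposite sides.

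S100a8 and S100a9, the subunits of calprotectin, were brighter in Cy5 in liver and brighter in Cy3 in stomach. S100a9 had a raw mean signal of 669 in Cy3 and 1700 in Cy5 on the liver array, and of 687 and 319 on the stomach array. After normalization it was 1.83-fold brighter in Cy5 in liver (log2 ratio 0.87, scanner error 0.18) and 3.80-fold brighter in Cy3 in stomach (-1.93, scanner error 0.25). S100a9 was thus high in 3 of the 4 tissue samples, and low in the Cy5 sample of stomach. Its normalised signal was 735 and 1346 in the Cy3 and Cy5 samples of liver and 820 and 216 in those of stomach.

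S100a8 had ratios of the same signs at lower signal. Its raw signal was 304 in Cy3 and 607 in Cy5 in liver, and 194 and 113 in stomach, where the negative controls had 119 and 68.4. Its normalised signal was 296 and 515 in the Cy3 and Cy5 samples of liver and 151 and 84.9 in those of stomach, so both stomach samples were below both liver samples. The ratio was 0.80 in liver (1.74-fold, scanner error 0.22) and -0.83 in stomach (1.78-fold brighter in Cy3, scanner error 0.71). In stomach the value depended on the offset added to the signals, since the scanner software's ratio was -1.69, which is 3.24-fold. On the liver array 0.297% of genes had a higher ratio than S100a8, and 0.238% a higher one than S100a9. Since the members were chosen on these ratios, nothing is read from these ranks. S100a8 was in neither stomach list, whereas S100a9 was listed down at 4.70-fold in the authors' deposited table.

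Markers of neutrophils and of squamous epithelium, which can make calprotectin, were read beside the pair. Of 18 neutrophil genes listed, 17 were on the array and measured in liver, where 1 was at least 2-fold brighter in Cy5 and none in Cy3, with a median of 0.10 and a range of -0.33 to 1.14. The 1 gene was Lcn2, an iron-scavenging protein of neutrophil granules that hepatocytes also make, at 1.14. The summed signal of the list was 5164 in Cy3 and 9086 in Cy5, a log2 ratio of 0.815 that no measured gene of the list but Lcn2 reached. Of the granule proteins of neutrophils, Camp had 0.48 (scanner error 0.71), Ngp -0.07 and Mpo 0.06. In stomach 15 neutrophil genes were measured and the other 2 were not well above background in either channel. The list's median there was -0.01, the summed signal 1992 in Cy3 and 1622 in Cy5, and the 1 gene past 2-fold was Ltf, lactoferrin, at -1.16 (SD 0.13 between 2 probes). Squamous epithelium genes were spread around 0 in liver, from -0.23 to 0.48 over 20 genes. In stomach 14 of the 20 were at least 2-fold brighter in Cy3 and 1 in Cy5, with a median of -1.66 and summed signals of 45740 in Cy3 and 9316 in Cy5. Loricrin (Lor) had -4.20, the keratin Krt4 -3.84, Lgals7 -3.50 and Calml3 -3.35. Of the 20, 3 lay above 0, and the 1 of them past 2-fold was involucrin (Ivl) at 1.16 (scanner error 0.66). In the authors' deposited lung lists, where S100a8 and S100a9 were not found, 2 neutrophil genes (Ltf and Mmp8) were up and 1 (Chil1) down, and 6 squamous genes up and 1 down. The part of these cells in the ratios of S100a8 and S100a9 was not tested. In bulk tissue, fewer cells of a type and less RNA per cell cannot be told apart.

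Among receptors and binding partners of calprotectin, Tlr4 had 0.16 in liver and 0.38 in stomach, and Ager 0.13 and 0.06, both with scanner errors or SDs above their values. Cd36, a fatty acid transporter that also binds S100a8 and S100a9, was brighter in Cy5 in liver (1.28, SD 0.005 between 2 probes) and brighter in Cy3 in stomach (-2.33, SD 0.93 between 2 probes). Basigin (Bsg) had -0.54 in liver and -0.01 in stomach, the latter changing sign by the scanner software's ratio (0.04) and under median centring (0.38). In the authors' deposited table for lung, Ager was listed down at 15.5-fold and Cd36 at 11.3-fold, and Bsg was listed up at 3.52-fold. Ager is abundant in alveolar type I cells, and 8 of 10 alveolar and airway markers were in that lung down list and none in the up list. The down list held 9.78% of all gene spots and the up list 5.51%. The part of alveolar cells in the Ager value was not tested.

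S100a10 was on the Cy5 side in all 3 organs. In liver the raw signal was 896 in Cy3 and 2090 in Cy5, and in stomach 1040 and 7440. The Cy5 sample of stomach was the highest of the 4, with a normalised signal of 5381 against 1698 in its partner and 984 and 1598 in liver. The ratio was 0.70 in liver (1.62-fold, scanner error 0.17) and 1.66 in stomach (3.17-fold, scanner error 0.21), or 1.05 and 2.50 under median centring. In the authors' deposited lung list it was 2.82-fold, with listed signals of 35500 in Cy3 and 100000 in Cy5.

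Annexin A2, which holds S100a10 in a complex at the membrane, went the same way in stomach and lung and the opposite way in liver. Anxa2 had a ratio of 1.04 in stomach (SD 0.18 between 2 probes) and -0.46 in liver (SD 0.10 between 2 probes). Both of its probes were in the authors' deposited lung up list, at a mean of 4.72-fold. Under 7 alternative settings Anxa2 stayed between -0.64 and -0.26 in liver and between 1.04 and 1.77 in stomach.

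S100a11, a calcium-dependent partner of annexin A1, was on the Cy5 side in liver and stomach at very different signals. Raw signals were 203 in Cy3 and 318 in Cy5 in liver, and 1570 and 5990 in stomach. The ratio was 0.71 in liver (1.64-fold, scanner error 0.33) and 0.70 in stomach (1.63-fold, scanner error 0.17). Under median centring these were 0.88 and 1.56. Anxa1 had 0.39 in liver (scanner error 0.37) and -0.11 in stomach (scanner error 0.16), which turned to 0.73 under median centring. Among the other annexins on the list, Anxa11 had -0.20 in liver and 0.83 in stomach and was in the lung up list at 2.33-fold, and Anxa5 had -0.22 and 0.49, with the liver value at 0.14 under median centring.

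**Figure D3:**
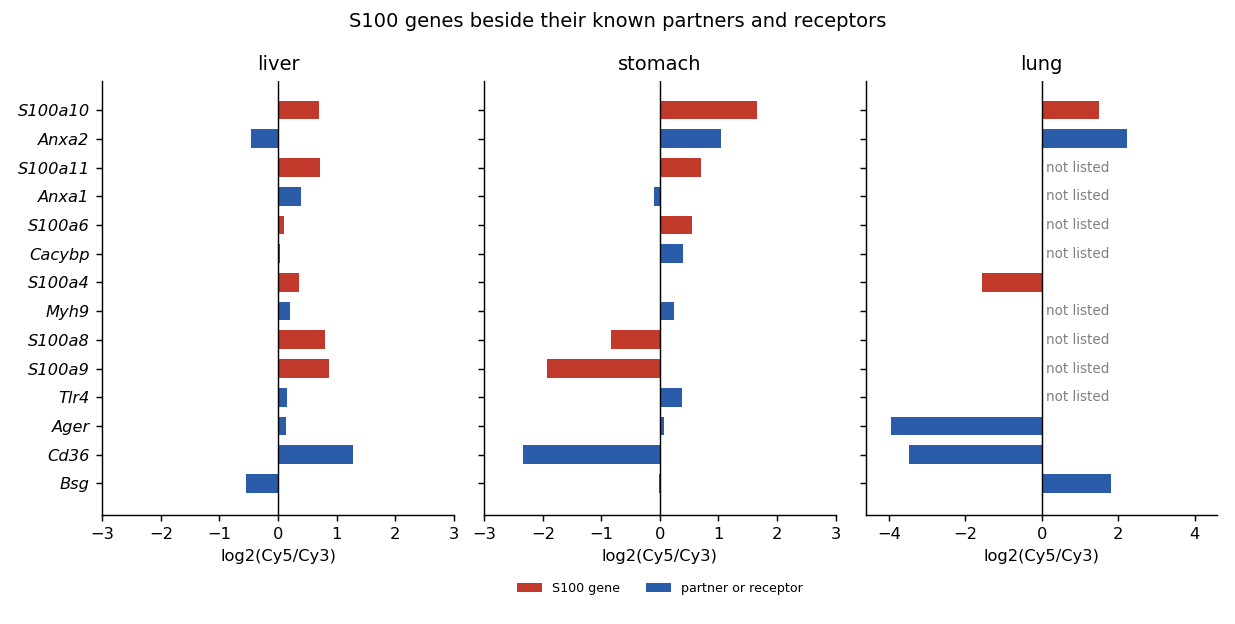
Log2(Cy5/Cy3) of S100 genes (red) beside known partners and receptors (blue) in liver and stomach (after normexp and loess) and in lung (authors' deposited lists), 1 array per organ; bars start at 0 and the lung axis is wider. S100a10 lies right of 0 in every panel, and Anxa2 does so in stomach and lung but has -0.46 in liver.

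S100a4, also called metastasin or fibroblast-specific protein, was on the Cy5 side in liver, near 0 in stomach by most settings and on the Cy3 side in lung. Its raw signal was 418 in Cy3 and 682 in Cy5 in liver and 509 and 902 in stomach. After normalization the Cy3 and Cy5 samples had 437 and 563 in liver and 628 and 631 in stomach. The ratio was 0.37 in liver (1.29-fold, scanner error 0.19) and 0.01 in stomach (scanner error 0.18). Median centring without loess gave 0.65 in liver and 0.56 in stomach. The authors' deposited table listed S100a4 down in lung at 2.94-fold, with signals of 29400 in Cy3 and 10000 in Cy5. Myh9, a non-muscle myosin heavy chain that S100a4 binds, had 0.20 in liver and 0.24 in stomach and was in neither lung list.

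Markers of fibroblasts and mesenchyme, cells in which S100a4 is common, had a median of 0.22 in liver, with 10 of 13 above 0, and of 0.15 in stomach, with 7 of 12 above 0; none reached 2-fold on either array. Their summed signal was 4184 in Cy3 and 5646 in Cy5 in liver. Vimentin (Vim) had 0.68 in liver, the highest of the list, and -0.03 in stomach, and was listed down in lung at 6.85-fold. Vim was thus on the side of S100a4 in liver and lung. Fn1 was on the other side in liver, at -0.64 (SD 0.68 between 3 probes), the lowest of the list. In lung 4 of the 13 were in the down list and 2, Col1a1 and Fn1, in the up list. Macrophage markers, another source of S100a4, had medians of 0.004 in liver and 0.06 in stomach, with Lyz2 at 1.18 in stomach (SD 0.93 between 2 probes) and listed down in lung at 8.59-fold, while Cd14, a co-receptor for lipopolysaccharide, was listed up there at 2.73-fold. Their part in the values of S100a4 was not tested.

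S100a6, known as calcyclin, showed the widest range of signal of the 10. Raw signals were 305 in Cy3 and 376 in Cy5 in liver, near the level of many dim genes, but 14000 and 65200 in stomach, where the Cy5 spot was saturated. The liver ratio was 0.11, smaller than its scanner error of 0.24. In stomach S100a6 was at least 1.46-fold brighter in Cy5, a lower bound because of the saturation, and 1.59-fold by the scanner software. The value moved most with the processing, reaching 1.80 under median centring against 0.55 here. Cacybp had 0.04 in liver and 0.39 in stomach, and both genes were in neither lung list.

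S100b was at the limit of detection in liver and brighter in Cy5 in stomach and lung. Its raw signal was 155 in Cy3 and 118 in Cy5 in liver, where the negative controls had 127 and 67.7, and 168 and 388 in stomach. The liver ratio of 0.08 had a scanner error of 1.01 and gives no direction. In stomach S100b was 2.22-fold brighter in Cy5 (1.15, scanner error 0.38), or 3.15-fold by the scanner software. The authors' deposited table listed it up in lung at 3.50-fold, with signals of 1950 in Cy3 and 6820 in Cy5.

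S100b is used as a marker of glia. Of 12 genes of glia and nerve, 10 were measured in stomach, with a median of -0.08, and the 1 past 2-fold was Chgb, a granule protein of endocrine and nerve cells, at -3.09. Sox10 had -0.11 (scanner error 0.36) and Gfap 0.05 in stomach, and in lung 1 gene of the list, Erbb3, was in the up list and none in the down list. Fat cell genes, another source of S100b, had a median of -0.29 in stomach, with Cfd at -3.82 and Fabp4 at -1.54. In lung, Fabp4 and Cidec were listed up, and Cfd and Adipoq down. The part of glia and fat cells in the S100b values was not tested.

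S100g was brighter in Cy5 in stomach and brighter in Cy3 in lung, the widest difference between organs among the members. On the liver array the raw signal was 154 in Cy3 and 113 in Cy5, close to the negative controls, and the liver ratio of 0.05 had a scanner error of 1.27. In stomach the raw signal was 242 in Cy3 and 760 in Cy5, and the ratio was 1.21 (2.31-fold, scanner error 0.25). The scanner software's ratio in stomach was 2.89-fold. In lung the authors' deposited table gave signals of 19500 in Cy3 and 632 in Cy5, a 30.9-fold difference in the down list (-4.95 on the log2 scale).

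In stomach, genes of absorptive intestinal cells, where S100g is best known, had a median of 0.47, with 3 of 9 measured genes at least 2-fold brighter in Cy5 and none in Cy3. These were Krt20 at 2.41, the sodium and proton exchanger Slc9a3 at 2.39 and the brush border protein Vil1 at 2.03. The lactase gene Lct had 0.04 and the sugar transporter Slc5a1 -0.07. The summed signal of the list was 6973 in Cy3 and 32400 in Cy5. The vitamin D pathway that controls S100g in the gut gave small values: Vdr had 0.15 (scanner error 0.84) and Cyp24a1 -0.09 (scanner error 1.58), and the calcium channel Trpv6 0.06 (scanner error 1.47). The calcium pump Atp2b1 had 0.48 (SD 0.16 between 4 probes). In lung, where alveolar type II cells express S100g, 8 of 10 alveolar and airway genes were listed down, by 19.5-fold for the surfactant gene Sftpa1, 12.3-fold for Foxj1 of ciliated cells, 9.77-fold for Hopx and 9.38-fold for Aqp5 of type I cells, and 6.87-fold and 6.53-fold for the surfactant genes Sftpd and Sftpb. The rest of these genes, the surfactant gene Sftpc and Scgb1a1, were in neither lung list. The lung down list held 9.78% of all gene spots. Trpv6 was listed down at 2.61-fold, and Slc9a3 and Vil1 were listed up. The part of alveolar or intestinal-type cells in the S100g values was not tested.

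S100a14, an epithelial S100 protein, was near 0 in stomach after loess and listed up in lung. Its raw signal was 1270 in Cy3 and 3000 in Cy5 in stomach, and after normalization the ratio was 0.11 (scanner error 0.17), or 0.88 under median centring. In liver it was dim, with 140 in Cy3 and 99 in Cy5, and its ratio of 0.16 had a scanner error of 1.72. In the authors' deposited lung list it was 9.44-fold up, from 2900 in Cy3 to 27400 in Cy5. Epithelial markers had a median of 0.77 in stomach, with 4 of 8 at least 2-fold brighter in Cy5: Cldn7 at 1.77, Krt7 at 1.50, Krt19 at 1.29 and Epcam at 1.12. In lung 6 of the 8 were in the up list and none in the down list, led by Krt19 at 12.9-fold and Epcam at 7.26-fold. In liver all 8 were below 0, with a median of -0.16, but Epcam, Krt19, Cldn4 and Cldn7 had scanner errors above the size of their ratios. The part of epithelial cells in the values of S100a14 was not tested.

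S100a1, which regulates calcium release in muscle through the ryanodine receptors, was near 0 in liver after loess and on the Cy5 side in stomach. The raw signal was 533 in Cy3 and 712 in Cy5 in liver and 443 and 1230 in stomach. The ratio was 0.005 in liver (scanner error 0.18) and 0.68 in stomach (1.60-fold, scanner error 0.19), or 0.31 and 1.25 under median centring. Striated muscle markers had a median of -0.18 in stomach and smooth muscle markers -1.82, and the receptors Ryr1 and Ryr2 had -0.10 and -0.20 there. S100a13, the next gene on chromosome 3, had 0.88 in stomach (scanner error 0.19) and -0.43 in liver (scanner error 0.18).

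Of 10 other S100 genes listed, 7 were on the design. In liver 6 were measured and all lay below 0, from -0.43 for S100a13 to -0.05 for S100a3, though under median centring the list's median was 0.01. In stomach 4 of 7 lay above 0, with S100a13 highest, S100a16 at 0.42 and S100a7a at -0.29 (scanner error 1.17). None reached 2-fold on either array. In lung S100a5 was listed up at 2.22-fold and S100pbp, which encodes a nuclear binding protein of S100P, down at 2.76-fold. The fused type S100 genes, large proteins of the cornified layer that begin with an S100 domain, lay below 0 in stomach for all 6 measured. Filaggrin (Flg) had -2.11, repetin (Rptn) -1.51 and hornerin (Hrnr) -1.18 (SD 1.21 between 2 probes). The rest lay between -0.29 and -0.06 there, each within its scanner error. In liver 5 were measured, between -0.13 and 0.16, and in lung trichohyalin (Tchh) was listed up. Of the 28 receptors and partners, 1 was at least 2-fold brighter in Cy5 in liver (Cd36) and 1 in stomach (Anxa2), 1 was at least 2-fold brighter in Cy3 in stomach (Cd36), and medians were 0.04 and 0.06.

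**Figure D4:**
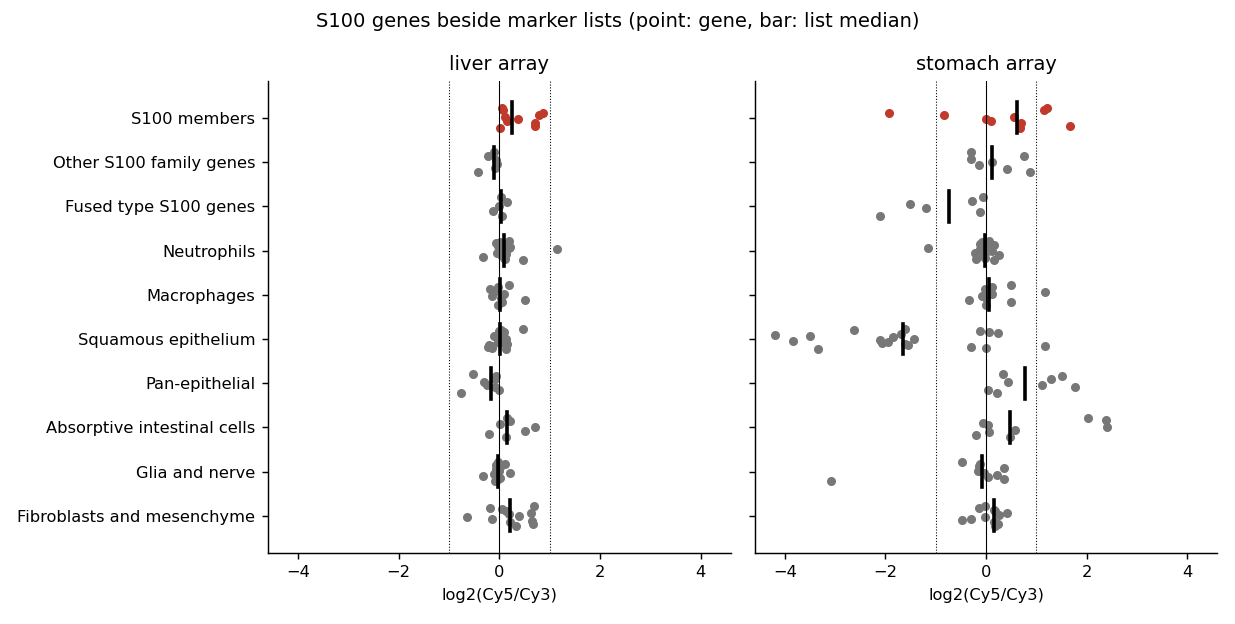
Log2(Cy5/Cy3) of each measured gene in the S100 members and in 9 gene lists on the liver and stomach arrays (point: gene; black bar: list median; dotted lines: 2-fold). In stomach the S100 members have a median of 0.61, squamous epithelium genes -1.66 and fused type S100 genes -0.74.

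Levels of the same probe were set side by side between liver and stomach after scaling of brightness between the arrays. Organ and array cannot be told apart here, and the added offset of 50 makes differences at low signal look smaller. S100a6 was 105-fold brighter on the stomach array than on the liver array in Cy3, and at least 143-fold in Cy5, where its stomach spot was saturated. Averaged over both channels, S100a14 was 26.7-fold and S100a11 16.1-fold brighter on the stomach array. For all of these both stomach samples were above both liver samples. S100g was 3.89-fold, S100a10 2.41-fold and S100b 2.05-fold brighter on the stomach array. S100a1 and S100a4 differed by 1.19-fold and 1.27-fold. S100a8 and S100a9 were brighter on the liver array when averaged over both channels. In Cy3 alone S100a9 was slightly brighter on the stomach array. Between the Cy5 samples the difference of stomach minus liver was -2.64 for S100a9 on the log2 scale, and between the Cy3 samples 0.16. S100a8 differed between the Cy5 samples by -2.60 and between the Cy3 samples by -0.97. For S100a9, both liver samples and the Cy3 sample of stomach lay within 735 to 1346, and the Cy5 sample of stomach stood apart at 216.

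**Figure D5:**
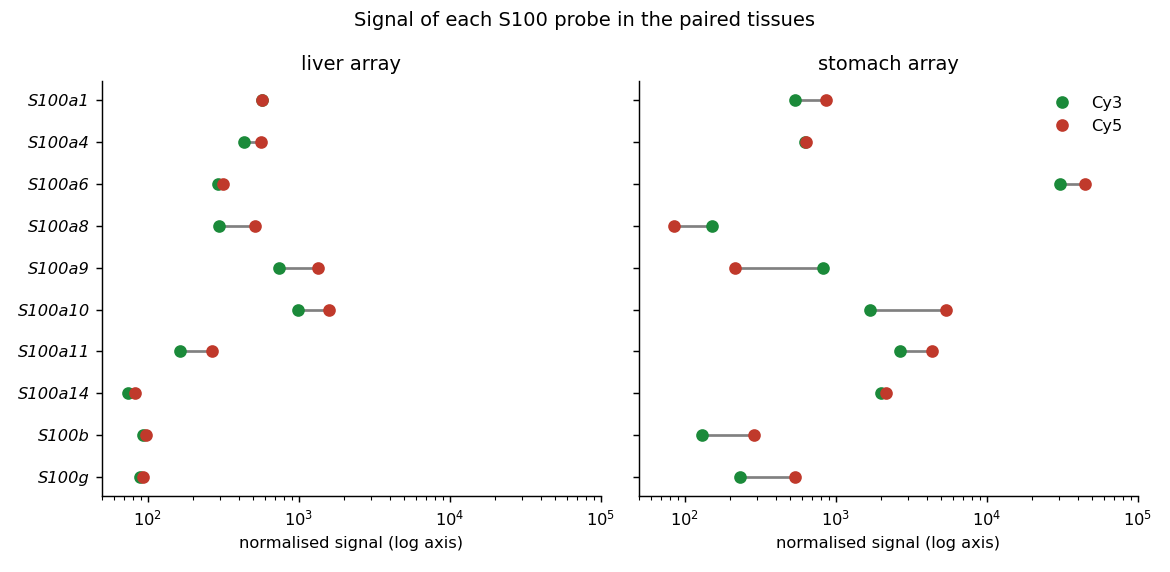
Normalised signal (log axis, with the added offset of 50) of each S100 probe in the Cy3 (green) and Cy5 (red) samples of the liver and stomach arrays, 1 array per organ. S100a6 has 292 and 314 in liver against 30650 and 44850 in stomach, and S100a9 has 820 in Cy3 and 216 in Cy5 of stomach.

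Genes with the most similar ratios were listed by distance in log2 units. Over the liver and stomach arrays, among 2142 genes with a ratio of at least 0.5 in size on either, Wnt10a (0.76 and -0.80) was nearest to S100a8, followed by Ifi27l2b (0.75 and -0.73), and Cst8 (0.76 and -1.81) was nearest to S100a9. Wnt10a and Ifi27l2b were listed up in lung (1.40 and 4.72) and Cst8 down (-3.11), whereas S100a8 and S100a9 were in neither lung list. No nearest genes are given for S100a6, whose stomach ratio is a lower bound. For members with a lung value, all 3 organs were used, among 4474 genes. S100a4 was nearest to 9130002K18Rik, Sema6d and Luc7l2, within 0.08. S100b was nearest to Ripply3, Lgals3 and Fam3b, within 0.24, and Lgals3 encodes the lectin galectin-3. For S100g the nearest was Tspan13, at a distance of 0.49, with 0.26 in liver, 0.95 in stomach and -4.58 in lung, and the next was the lung chemokine Cxcl15, beyond a distance of 1. A likeness over 2 or 3 arrays is weak, and many genes lie close together near 0.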

How the data were processed

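Gene expression was measured on 2-colour Agilent mouse arrays from 500 ng of total RNA per tissue, per the labels' protocols, and read with Agilent Feature Extraction 8.5.1.1, per the submitters' processing notes. Each group was 1 array. The authors' deposited intensity columns hold mean spot and median background intensities without normalization, per the file headers. The deposited log10 ratio of red over green was corrected for background and dye by the scanner software, with an error and a p-value for 1 spot, per the file headers. The authors' deposited gene table gives the log10 ratio, and its liver and stomach values equalled the scanner's within 0.002, with scanner p-values up to 0.01. Its last list changes the order of its signal columns (1776 of 4064 spots), so a signal was used where it gave the listed ratio within 2%. Lung spot numbers were read as those of this design; across the 2288 spots of its up list, log brightness followed that of the same spots in liver with r = 0.60 (spots are not independent replicates).

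From the scanner files, backgrounds were corrected by normexp (offset 50) and ratios normalized by loess within each array (limma 3.58.1, R 4.3.3), with control spots at weight 0; the steps were tested on simulated data. Control spots, outlier flags and probes saturated in both channels or not well above background in either were left out, and probes of a gene were averaged. Signals by channel were scaled between arrays by Aquantile. Symbols followed a RefSeq table of GRCm38.p6, used for names, gene order and promoters (79.4% of 41174 probes named); later steps used Python 3.11.15 and pandas 2.3.3. Members and lists were chosen with earlier results of these data known. The named genes were the 10 members, receptors and partners, and up to 4 list genes per array at 2-fold or in a lung list. Also named were the 3 nearest genes of 6 members (left out for S100a6, saturated). Camp, Ngp, Mpo, Sox10, Gfap, Lct, Slc5a1, Vim and Col1a1 were named beyond this rule, after their values were seen. So were Fn1, Sftpb, Sftpc, Sftpd, Scgb1a1 and the other S100 genes. With 1 array per organ, genes were counted at a log2 ratio of 1 in size, without a test, and 7 alternative settings were tried.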

Additional observations from a re-analysis of the deposited data

Results flagged for a closer look

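S100 genes differed in direction between organs in 4 cases, in which every sample (1 array per organ) went one way in one organ and the other way in another; the difference itself was not tested. S100a9 had a log2 ratio lower by 2.80 in stomach than in liver (difference -2.80, from 0.87 to -1.93). For S100a8 the difference was -1.63, from 0.80 to -0.83. Its stomach spot was dim, with raw signals of 194 in Cy3 and 113 in Cy5, and was in neither stomach list. The listed lung ratio of S100g minus its scanner ratio in stomach was -6.48, from 1.53 to -4.95. The listed lung ratio of S100a4 minus its scanner ratio in liver was -1.95, from 0.40 to -1.56.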

How the results depend on the processing

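Of the 20 ratios of S100 genes on the liver and stomach arrays, 15 kept their sign under the 3 alternatives that could change a member (an offset of 10, the scanner software's ratio and median centring). The other 4 alternatives left every member's value identical, since each has 1 probe that passed every filter. The ratios that turned were S100a1, S100a14, S100b and S100g in liver and S100a4 in stomach, whose ratios were at most 0.16 in size. Under those 3 settings 43 of 60 member values moved by less than the scanner error and 17 by more. Centring on the median without a loess curve moved most: it put 3 members at least 2-fold brighter in Cy5 in liver where 0 were counted and 6 in stomach where 3 were, and gave medians of 0.49 in liver and 1.32 in stomach. Members at least 2-fold brighter in Cy3 in stomach were 2 in place of 1 with an offset of 10 and with the scanner software's ratio, the second being S100a8. Over all genes at least 2-fold brighter in Cy5, the counts in liver were 113 with the offset of 10, 541 with the scanner ratio and 110 with median centring, and in stomach 441, 1093 and 1017. For Cy3 they were 104, 420 and 7 in liver and 587, 1049 and 235 in stomach. The cause of these moves was not tested. For the other settings (both filters on dim probes, the brightest probe and outlier flags kept) these counts stayed within 1.5 times. Signals near the negative controls limit S100a14, S100b and S100g in liver and S100a8 in stomach, and saturation limits S100a6 in stomach. No paired analysis was possible because each organ has 1 array.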

Other observations

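A probe for a predicted gene described on the array as similar to S100a11 (LOC670046), outside the 10 members, gave raw signals in liver of 248 (Cy3) and 377 (Cy5), and in stomach of 1610 and 6010. Its ratios were 0.53 in liver and 0.67 in stomach, beside 0.71 and 0.70 for S100a11, so whether the 2 probes measured separate genes is uncertain.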
